A study of Mus musculus with 8 samples.

Results

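The integrated stress response and the unfolded protein response were examined through 38 genes, listed by name for their known roles in these pathways: 5 transcription factors, 6 feedback regulators and stress effectors, 7 enzymes of amino acid, serine and one-carbon metabolism, 12 genes of folding and degradation in the endoplasmic reticulum (ER) and 8 aminoacyl-tRNA synthetases. Their members were all probes of the array that carry these gene symbols. Of the 38 genes, 32 were found by their symbol with 52 probes, 5 more (Ppp1r15a, Chac1, Pck2, Pdia4 and Pdia6) by an older symbol, and Sdf2l1 was not found, which gave 57 probes of 37 genes among the 25697 probes and 18120 symbols of the array.

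In the integrated stress response, kinases that sense amino acid shortage, viral RNA, haem deficiency or misfolded protein phosphorylate the initiation factor eIF2, general translation falls, and the messenger RNA of the transcription factor Atf4 is translated more. Atf4 in turn activates genes for amino acid uptake and synthesis, for tRNA charging, and for the factors Atf3 and Ddit3 (CHOP), while Ppp1r15a (GADD34) directs a phosphatase to eIF2 and so ends the response. The unfolded protein response joins this route, through the kinase Perk, with the sensors Ire1, which splices the Xbp1 messenger RNA, and Atf6, and these raise chaperones and degradation factors of the ER. Because Atf4 is controlled largely at translation and Xbp1 by splicing, the RNA level of either is an incomplete readout of its activity.

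The study asked which genes change when the transcription factor Bcl11b is overexpressed in STHdh striatal cells, a conditionally immortalized line of wild-type mouse striatal progenitors. In the 4 Bcl11b samples the cells had been transiently transfected, with Polyjet reagent, with a pcDNA3.1 plasmid that carries mouse Bcl11b, and the 4 pcDNA3.1 samples are the controls, which the labels call wild-type. The study's methods say that empty plasmid was used to keep the DNA equal between wells, and its legends call the controls mock-transfected. Its results text, however, calls the comparison cells untransfected. The controls are called mock here, after the sample titles, which name the plasmid. RNA was taken days after transfection. Both groups were grown under the same conditions, every cell came from the same line, and a transient transfection does not usually reach every cell, so each value is a mean over transfected and untransfected cells. In such bulk samples, fewer cells with a transcript and less of it per cell cannot be told apart. A legend of the study describes 4 different sets of transfected cells, so p-values measure the spread between sets of cells of this line.

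Each sample was hybridized to 1 Illumina MouseRef-8 v2 array. The median deposited signal was 31.6 to 53.9 on the mock arrays and 20.1 to 30.2 on the Bcl11b arrays, and 10121 to 10784 probes per array had a detection p-value under 0.01. After quantile normalization, 58.1% of the variance within groups lay along 1 component, on which Bcl11b replicate 4 and pcDNA3.1 replicate 1 were farthest out, and Bcl11b replicate 4 was the highest or lowest of its group for 71.9% of the detected stress response genes and 78.5% of all detected probes. The Bcl11b probe was not detected on any array, so the transfected gene could not be checked here. The study itself assessed transfection by counting GFP-positive cells and by qPCR of Bcl11b. None of the 7 medium spiny neuron markers matched was detected, 3 of 6 neuronal and 3 of 6 progenitor markers (Nes, Sox2 and Vim) were, and none of the oligodendrocyte, microglial or endothelial markers. Of 5 astrocyte markers, 1 (Slc1a3) was detected. By PCR, however, the study found Ppp1r1b, Rgs9 and Bcl11b expressed in this line, and it reported Present calls for most of its striatal-enriched genes. An undetected probe here therefore does not show that a transcript was absent. Of the 4 mesenchymal markers detected among 6, Pdgfrb (log2 difference −0.49, groups not overlapping, limma adjusted p = 0.309) and Col3a1 (−0.87, interval −1.88 to 0.14) had estimates below 0, and Col1a1 (0.22, interval −0.42 to 0.86) and S100a4 (0.28, interval −0.89 to 1.46) above it. Their part in the results below was not tested.

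The regulatory sequence of the genes on which the results turn is shown first. RefSeq promoter windows of 300 bases (250 before and 50 after the gene's start, build GRCm38.p6) were found for 36 of the 38 genes, and were searched on both strands for the letters TGATGNAA (the core of the C/EBP-ATF composite element, which Atf4 binds), TGACGTCA (the cyclic AMP response element), TGACGTGG (the unfolded protein response element) and the ER stress response element (CCAAT and CCACG a fixed spacer apart), none of which overlapped another here. The composite element core was present in 10 of the 36 genes (27.8%) and in 3.97% of all 32851 windows, the ER stress response element in 6 (16.7%) against 0.119%, and the cyclic AMP response element in 1 (Ppp1r15a) against 1.79%, while TGACGTGG was in none of these genes and in 0.676% of windows. The first share counts genes and the second counts windows. Both the genes and the elements were chosen for known roles in these pathways, so no excess is drawn from these shares. The 6 windows below belong to the 4 genes that passed a threshold given below (Atf3, Ddit3, Ppp1r15a and Chac1), and to Asns and Hspa5, which are standard readouts of Atf4 activity and of ER stress. Each is written 5′ to 3′ on the strand of the gene, and capitals mark a match to a searched element, or nothing where there is none.
Atf3 (chr1:191183284-191183583, minus strand): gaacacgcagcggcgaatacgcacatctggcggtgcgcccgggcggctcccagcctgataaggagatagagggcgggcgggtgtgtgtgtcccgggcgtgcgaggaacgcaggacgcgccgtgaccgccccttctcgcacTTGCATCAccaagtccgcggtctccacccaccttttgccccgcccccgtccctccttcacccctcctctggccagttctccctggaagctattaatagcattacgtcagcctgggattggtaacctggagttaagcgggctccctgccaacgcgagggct
Ddit3 (chr10:127290543-127290842, plus strand): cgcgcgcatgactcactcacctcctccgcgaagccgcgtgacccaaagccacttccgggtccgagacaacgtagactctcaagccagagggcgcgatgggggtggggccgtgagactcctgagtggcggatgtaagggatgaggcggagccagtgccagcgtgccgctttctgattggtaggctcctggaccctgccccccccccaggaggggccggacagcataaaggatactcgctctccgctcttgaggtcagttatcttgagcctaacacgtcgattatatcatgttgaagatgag
Ppp1r15a (chr7:45526219-45526518, minus strand): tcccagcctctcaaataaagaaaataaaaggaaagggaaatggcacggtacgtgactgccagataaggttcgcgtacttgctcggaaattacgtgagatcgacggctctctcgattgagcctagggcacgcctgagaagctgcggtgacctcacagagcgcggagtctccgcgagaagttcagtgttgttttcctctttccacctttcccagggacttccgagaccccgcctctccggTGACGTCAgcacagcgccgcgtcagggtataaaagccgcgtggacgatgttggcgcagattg
Chac1 (chr2:119350992-119351291, plus strand): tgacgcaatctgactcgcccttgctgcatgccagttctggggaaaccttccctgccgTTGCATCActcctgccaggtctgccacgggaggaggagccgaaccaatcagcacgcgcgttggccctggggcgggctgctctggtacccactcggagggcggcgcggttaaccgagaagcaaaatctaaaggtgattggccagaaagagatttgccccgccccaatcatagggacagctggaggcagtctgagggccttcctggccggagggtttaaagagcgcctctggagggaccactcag
Asns (chr6:7693160-7693459, minus strand): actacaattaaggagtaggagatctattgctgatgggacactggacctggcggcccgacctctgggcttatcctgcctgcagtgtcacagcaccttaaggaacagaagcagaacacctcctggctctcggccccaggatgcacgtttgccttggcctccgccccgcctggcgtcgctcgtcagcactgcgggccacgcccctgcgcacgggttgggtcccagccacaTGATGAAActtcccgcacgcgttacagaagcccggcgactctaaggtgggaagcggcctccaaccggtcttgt
Hspa5 (chr2:34771840-34772139, plus strand): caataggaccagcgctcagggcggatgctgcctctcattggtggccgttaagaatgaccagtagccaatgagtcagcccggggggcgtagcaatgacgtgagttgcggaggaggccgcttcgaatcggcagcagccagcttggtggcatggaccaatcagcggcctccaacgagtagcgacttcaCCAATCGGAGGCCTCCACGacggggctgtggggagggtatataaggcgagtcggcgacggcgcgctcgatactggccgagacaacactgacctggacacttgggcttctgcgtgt
In Atf3 and Chac1 the match was the same 8 letters, TTGCATCA, which is the composite core read on the opposite strand, starting 110 and 193 bases before the gene's start. The matches in Asns (TGATGAAA, 23 bases before the start) and Ppp1r15a (TGACGTCA, 12 bases before it) lay closer to the start. Ddit3 held none of the 4 elements in this window, and the marked element of Hspa5 began 65 bases before its start. A match is a stretch of letters and not a bound site, and an absent match says nothing of the factor.

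Among the 37 genes with a probe, 32 were detected, meaning that their brightest probe, which stands for the gene below, had a detection p-value under 0.01 on at least 1 array (31 on all 8, Sesn2 on 7). Psph, Pck2, Canx, Ero1l and Edem1 were not detected on any array and no fold is given for them. Each gene was tested in a limma fit of the whole array (25697 probes, Benjamini-Hochberg adjustment) at 2 thresholds: an adjusted p under 0.10, and a looser one, an unadjusted p under 0.05 with a log2 difference of at least 0.32 either way. At the adjusted threshold 1 gene was higher in Bcl11b-transfected cells, Atf3, and 1 was lower, Chac1, where 0.468% of all detected probes were higher and 1.2% lower. At the looser threshold 3 genes were higher (Atf3, Ddit3 and Ppp1r15a) and 1 lower (Chac1), against 4.32% of detected probes higher and 10.5% lower. The groups did not overlap for 2 higher genes (Atf3 and Ppp1r15a) and 1 lower gene (Chac1), and over all detected probes for 2.97% and 7.09%. The remaining 28 genes passed neither threshold. The median log2 difference of the 32 genes was −0.088, beside −0.016 over all detected probes, with 13 genes above 0 and 19 below. That median became 0.069 when arrays were scaled by their median signals in place of quantile normalization, so no direction is drawn for the genes as a whole.

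**Figure D1:**
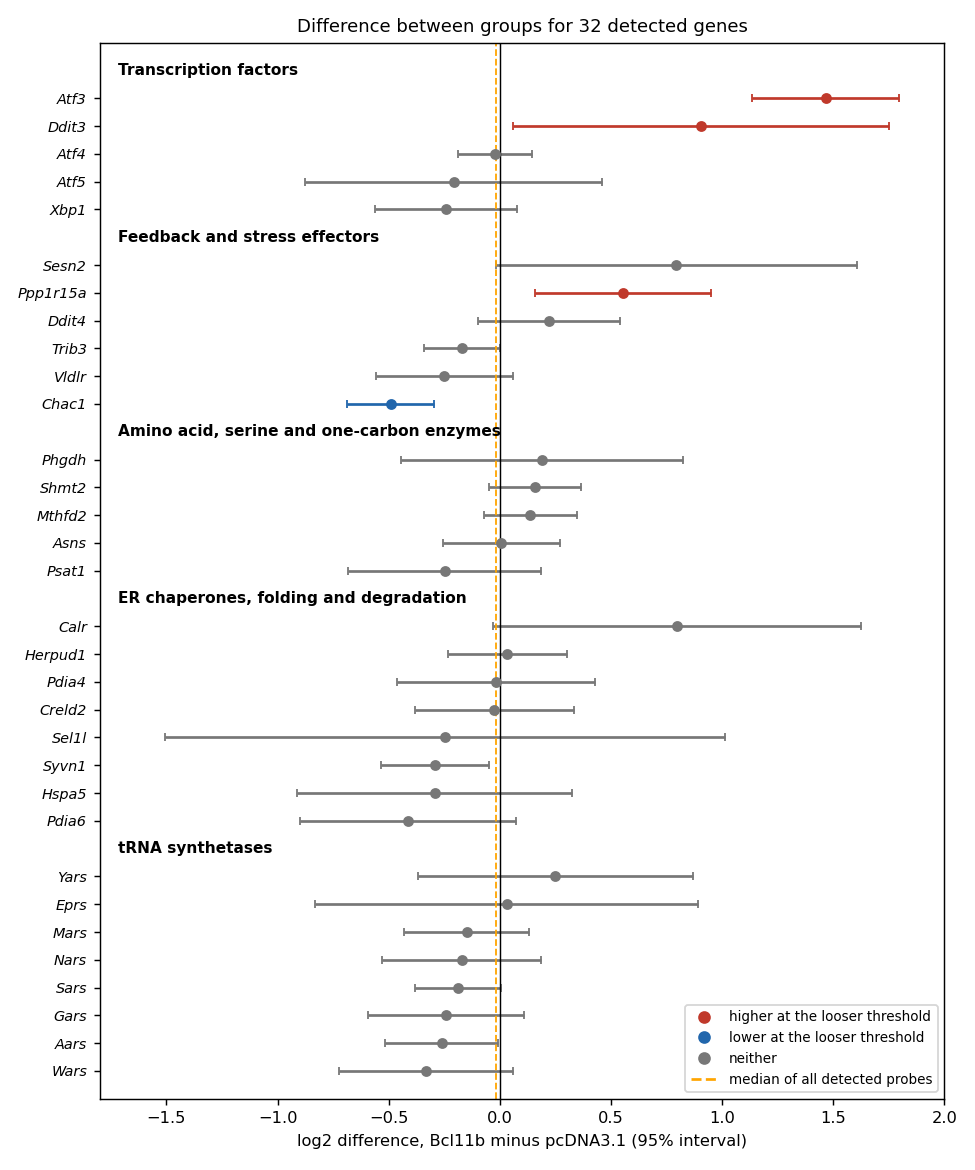
Difference between Bcl11b-transfected and mock-transfected cells (x axis, log2, Bcl11b minus pcDNA3.1) for the 32 detected stress response genes by role. Points are limma estimates from 4 arrays per group, bars their 95% intervals, colour marks the looser threshold, and the dashed line is the median of all detected probes at −0.016. Atf3, Ddit3 and Ppp1r15a lie to the right of 0 and Chac1 to the left, and most other intervals span 0.

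Of the transcription factors, Atf3, a repressor and activator of the ATF/CREB family that many stresses induce, rose the most of the 32 genes. Its normalized log2 signal was 8.25, 8.47, 7.91 and 8.05 on the 4 mock arrays and 9.67, 9.44, 9.78 and 9.67 on the 4 Bcl11b arrays. Every Bcl11b array lay above every mock array, with a gap larger than the spread within either group. The log2 difference was 1.47 ± 0.14 (SE, n = 4 per group), or 2.76-fold with a 95% interval of 2.20-fold to 3.47-fold, and the limma adjusted p was 0.0196. Even the deposited signals, before any normalization, were higher with Bcl11b, at 498 to 729 against 292 to 439, although the Bcl11b arrays were dimmer throughout. Over the 8 fits that each omitted 1 array, the adjusted p of Atf3 ran from 0.0131 to 0.0956, while without normalization it was 0.125 and with the replicate number as a block 0.211, neither of which meets the adjusted threshold.

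Ddit3 (CHOP), the C/EBP family factor that favours cell death in lasting stress, was higher at the looser threshold, by 0.90 ± 0.35 on the log2 scale (SE, n = 4 per group, 1.87-fold, limma adjusted p = 0.447). Its log2 signal was 10.37, 9.74, 9.90 and 9.33 on the mock arrays and 10.88, 11.10, 11.09 and 9.88 on the Bcl11b arrays. Bcl11b replicates 1 to 3 were above all mock arrays, and Bcl11b replicate 4, the array that stood apart over all probes, fell among the mock values. The second Ddit3 probe had the same shape, with 9.39 on Bcl11b replicate 4 and 10.74 to 10.88 on the other 3, and a difference of 0.75 (interval −0.26 to 1.76). Without Bcl11b replicate 4 the difference of the brighter probe was 1.19 (limma adjusted p = 0.173), while with any of pcDNA3.1 replicates 2 to 4 or Bcl11b replicates 1 to 3 left out it was 0.74 to 0.92 and missed the looser threshold.

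Atf4 itself, the central factor of the response, differed by −0.02 with a 95% interval of −0.19 to 0.14. Its log2 signal was 13.37, 13.35, 13.26 and 13.37 on the mock arrays and 13.35, 13.48, 13.21 and 13.22 on the Bcl11b arrays, and the groups overlapped throughout. As a ratio the interval ran from 0.877-fold to 1.10-fold, and its standard error was the smallest of the 32 genes. The dimmer Atf4 probe gave 0.13 (interval −0.23 to 0.49).
Xbp1, the factor activated by Ire1, measured 11.09, 10.90, 11.02 and 11.00 with mock and 10.58, 10.54, 10.79 and 11.12 with Bcl11b, so that 3 Bcl11b arrays were below all mock arrays and Bcl11b replicate 4 above them. Its difference was −0.24 (interval −0.56 to 0.08). Atf5, a relative of Atf4 that is translated under the same control, differed by −0.21 with a wide interval of −0.88 to 0.46.

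**Figure D2:**
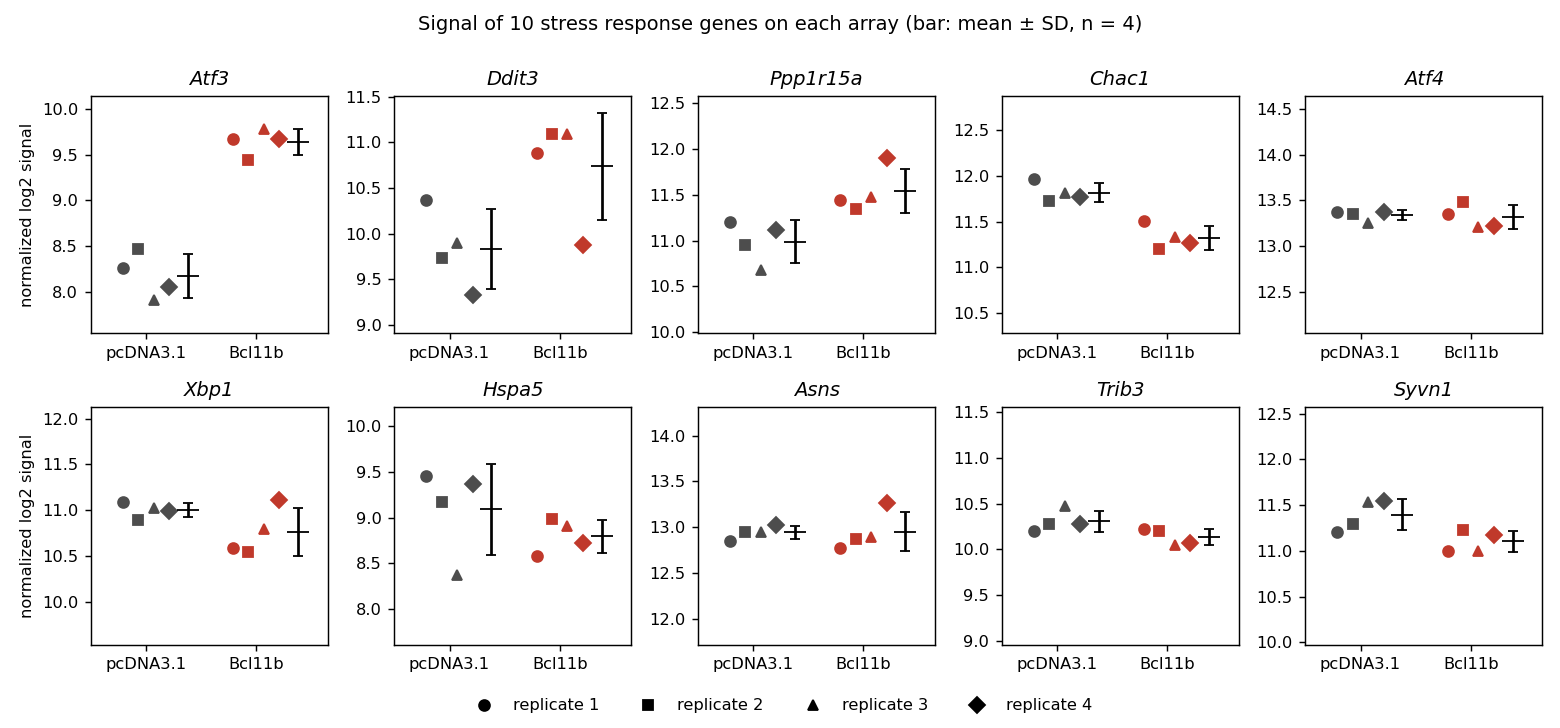
Normalized log2 signal (y axis, every panel spanning the same range) of 10 stress response genes on the 4 mock (grey) and 4 Bcl11b (red) arrays, with marker shape for replicate number and bars for mean ± SD. The groups separate for Atf3, Ppp1r15a and Chac1. Bcl11b replicate 4 lies low for Ddit3 and high for Xbp1 and Asns.

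The feedback regulators and effectors moved in both directions. Ppp1r15a, which directs the phosphatase to eIF2, was higher at the looser threshold by 0.56 ± 0.16 (SE, n = 4 per group, 1.47-fold, limma adjusted p = 0.303). It measured 11.21, 10.95, 10.67 and 11.12 on the mock arrays and 11.45, 11.34, 11.48 and 11.90 on the Bcl11b arrays, and the groups did not overlap. With any array left out the difference was 0.44 to 0.63 and met the looser threshold. Without normalization the difference was −0.091, but the median of all detected probes was then −0.68, so that Ppp1r15a remained above the bulk of the probes.

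Chac1, the glutathione-degrading enzyme that is a familiar target of Atf4, fell. Its log2 signal was 11.96, 11.73, 11.81 and 11.77 on the mock arrays and 11.50, 11.20, 11.34 and 11.27 on the Bcl11b arrays. All Bcl11b arrays were below all mock arrays, with a spread within groups (SD 0.10 and 0.13) that was small beside the difference of −0.49 ± 0.081 (SE, n = 4 per group, 1.41-fold lower, interval −0.69 to −0.30, limma adjusted p = 0.0841). The adjusted p lay close to the threshold, between 0.0836 and 0.236 with each array left out, and exceeded 0.10 without pcDNA3.1 replicates 1, 3 or 4 or Bcl11b replicates 2, 3 or 4. It was also over 0.10 under 7 of 10 other settings (no normalization, median scaling, an offset, either filter on detection, limma-trend and arrayWeights), reaching 0.317. The looser threshold was met in each of these fits.

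The other 4 effectors passed neither threshold. Trib3, a pseudokinase that restrains Atf4, differed by −0.17 at its brightest probe (interval −0.34 to 0.00) and by 0.46 and 0.18 at its dimmer probes, so the probes disagreed in sign. Sesn2, a sensor that lowers mTORC1 activity, measured 6.17, 7.55, 6.51 and 6.83 with mock and 7.34, 7.16, 7.80 and 7.94 with Bcl11b (difference 0.79, interval −0.02 to 1.60). The overlap came from pcDNA3.1 replicate 2, without which the difference was 1.06 and met the looser threshold (limma adjusted p = 0.168). That array was singled out for its value, so no call is drawn from this fit. Over the 8 fits that each omitted 1 array, the difference was 0.59 to 1.06, and 2 met the looser threshold. Of the 10 other settings, 4 also met it. Ddit4, another inhibitor of mTORC1, differed by 0.22 (interval −0.10 to 0.54) and Vldlr, a lipoprotein receptor induced by Atf4, by −0.25 (interval −0.56 to 0.06). Of the 6 effectors, then, 3 estimates were above 0 and 3 below, and the median was 0.026.

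None of the 5 detected enzymes of amino acid, serine and one-carbon metabolism passed either threshold. Asns, which makes asparagine and is the usual readout of amino acid shortage, measured 12.85, 12.95, 12.95 and 13.02 on the mock arrays and 12.77, 12.87, 12.89 and 13.26 on the Bcl11b arrays. Its difference was 0.01 with an interval of −0.26 to 0.27, and its dimmer probes gave 0.19 and 0.15. Phgdh and Psat1, which carry out early steps of serine synthesis, differed by 0.19 (interval −0.45 to 0.83) and −0.25 (interval −0.68 to 0.19). The mitochondrial one-carbon enzymes Shmt2 and Mthfd2 were at 0.16 (interval −0.05 to 0.36) and 0.14 (interval −0.07 to 0.35), and the dimmer probe of Shmt2 at 0.70 (interval −0.24 to 1.64). For Psat1, Bcl11b replicates 1 to 3 lay at 13.39 to 13.46, below the mock range of 13.50 to 14.02, and Bcl11b replicate 4 at 14.01.

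Among the 8 detected genes of the ER, none passed either threshold and 6 of 8 estimates were below 0 (median −0.14). Hspa5 (BiP), the main ER chaperone and the standard marker of the unfolded protein response, measured 9.46, 9.17, 8.37 and 9.37 with mock and 8.58, 8.98, 8.91 and 8.72 with Bcl11b. The Bcl11b values all lay inside the wide mock range, and the difference was −0.29 (interval −0.91 to 0.32). The low end of that range came from pcDNA3.1 replicate 3, without which the difference was −0.53 and Hspa5 was lower at the looser threshold (limma adjusted p = 0.278). That array was singled out for its value, so no call is drawn from this fit. Over the 8 fits that each omitted 1 array, the difference was −0.53 to −0.17. Only 1 of them met the looser threshold. Syvn1 (Hrd1), the ubiquitin ligase of ER-associated degradation, had an unadjusted p under 0.05 but missed the limit on the difference (−0.29, interval −0.54 to −0.05, limma adjusted p = 0.375), and its groups overlapped, with mock at 11.21 to 11.55 and Bcl11b at 11.00 to 11.23. Pdia6, a protein disulfide isomerase, was at −0.41 (interval −0.90 to 0.07) and its relative Pdia4 at −0.02 (interval −0.46 to 0.43).
Calr (calreticulin), the lectin chaperone that folds glycoproteins, had the highest estimate of the ER genes and measured 10.22, 11.56, 10.13 and 10.65 with mock and 11.31, 11.23, 11.38 and 11.83 with Bcl11b (difference 0.80, interval −0.03 to 1.62). As for Sesn2, the overlap came from pcDNA3.1 replicate 2, and without that array the difference was 1.11 with a limma adjusted p of 0.0919. In that fit 637 probes of the whole array passed the adjusted threshold, beside 252 with all arrays. That array, too, was singled out for its value. Over the 8 fits that each omitted 1 array, the Calr difference was 0.63 to 1.11, and only 1 met the looser threshold. Of the 10 other settings, 6 met it, so the side on which Calr fell depended on the processing. The components of ER-associated degradation Herpud1 and Sel1l were at 0.03 (interval −0.23 to 0.30) and −0.25 (interval −1.51 to 1.01), and the secreted ER stress protein Creld2 at −0.03 (interval −0.38 to 0.33). The dimmer probes of Herpud1 and Creld2 gave −0.21 (interval −0.47 to 0.05) and 0.08 (interval −0.16 to 0.32). For both genes, then, the probes disagreed in sign. Of the 5 detected genes with the ER stress response element in their promoter windows, Calr was therefore above 0, and Hspa5, Pdia6 and Syvn1 were below it. Creld2 was below 0 at its brightest probe only.

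The 8 tRNA synthetases, which load amino acids onto tRNA and of which several are induced by Atf4, were all detected on every array, and none passed either threshold. Of their estimates 6 were below 0 in the narrow range from −0.33 (Wars) to −0.15 (Mars), with Sars at −0.19 and Nars at −0.17. Yars (0.25) and Eprs (0.03) were above 0. Aars came closest, at 13.03, 12.85, 13.07 and 13.30 on the mock arrays and 12.76, 12.89, 12.66 and 12.89 on the Bcl11b arrays (difference −0.26, interval −0.52 to −0.01, limma adjusted p = 0.467), and the groups overlapped. The median of the 8 was −0.18, and −0.034 when arrays were divided by their medians, where Aars was at 0.01. Gars, which charges glycine, was at 13.57 to 13.65 on Bcl11b replicates 1 to 3 and 14.14 on replicate 4, beside 13.86 to 14.15 on the mock arrays, and Eprs was at 10.72 to 10.96 and 12.08 in the same order, beside 10.66 to 11.44. Bcl11b replicate 4 was the highest array of its group for all 8 synthetases, though narrowly for Aars, and for others such as Psat1 and Asns. It was the highest or lowest of its group for 78.5% of all detected probes. Without this array the synthetase median was −0.29, and 5 of the 32 genes were lower at the looser threshold, Xbp1 (−0.36), Psat1 (−0.39), Gars (−0.37) and Wars (−0.42) beside Chac1 (−0.47), while the same 3 were higher. Without pcDNA3.1 replicate 1 the count lower was 4 (Vldlr, Syvn1 and Wars beside Chac1), and without pcDNA3.1 replicate 2 it was also 4 (Pdia6, Syvn1 and Aars beside Chac1). Over the whole array, 252 probes passed the adjusted threshold with all arrays and 249 without Bcl11b replicate 4. With pcDNA3.1 replicate 1 left out the number was 113, and with replicate 2 left out 637. The share of all probes past the looser threshold in these fits is not given here. The probes of Wars disagreed, with −0.33 at the brightest and 0.31, 0.25 and 0.18 at the others. Across the roles, 9 of the 10 genes with the composite element core were detected (all but Pck2), of which Atf3 was higher, Chac1 lower, and Trib3, Vldlr, Asns, Herpud1, Aars, Gars and Yars passed neither threshold.

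**Figure D3:**
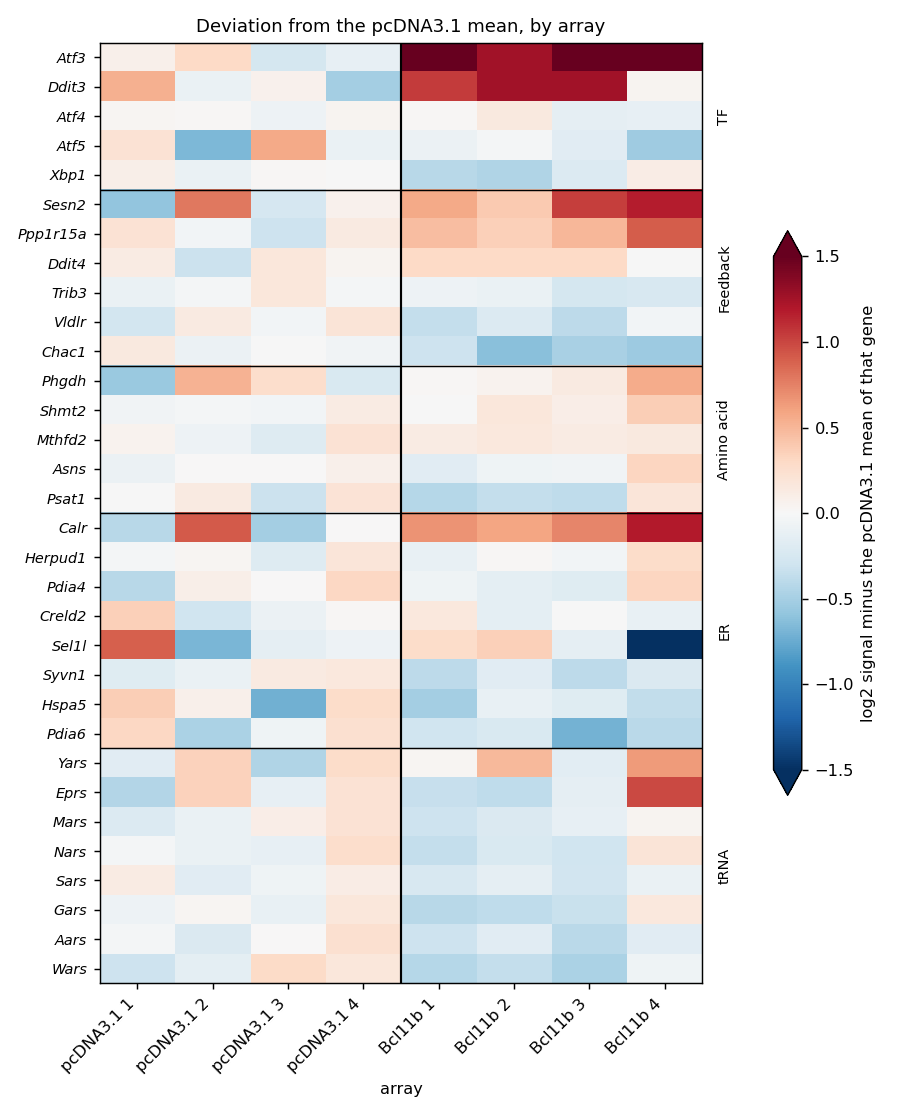
Deviation of each array (columns) from the mock mean of that gene (log2, colour scale cut at ±1.5) for the 32 detected genes, ordered by role from the transcription factors (TF) at the top to the tRNA synthetases. Atf3 and Ppp1r15a are red on all 4 Bcl11b arrays and Chac1 blue on all 4. Genes that passed neither threshold also lie on 1 side of the mock mean on all 4, among them Calr and Sesn2 (above) and Syvn1, Aars, Pdia6 and Hspa5 (below). Bcl11b replicate 4 differs from replicates 1 to 3 for Ddit3, Xbp1, Psat1, Sel1l and several synthetases.

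The wider pathways were followed through lists of other genes. Over all detected probes, 4.32% were higher and 10.5% lower at the looser threshold. Of 20 stress sensors and genes of the eIF2 machinery, 15 were detected and 1 passed that threshold. This was Eif2b1, a regulatory subunit of the exchange factor that phosphorylated eIF2 inhibits, at 10.96, 11.10, 10.87 and 10.97 with mock and 11.42, 11.15, 11.49 and 11.50 with Bcl11b (difference 0.42, limma adjusted p = 0.181). Its second probe gave 0.31 (interval 0.12 to 0.51). Another subunit, Eif2b2, differed by 0.22 (interval 0.05 to 0.39), under the limit on the difference, without overlap between groups, while Eif2b4 and Eif2b5 were at −0.19 (interval −0.44 to 0.05) and −0.18 (interval −0.75 to 0.39). The kinase genes Eif2ak1, Eif2ak2 and Eif2ak3 (Perk) differed by 0.20, −0.04 and −0.23, with intervals that all span 0, and Eif2ak4 (Gcn2) and Ern1 (Ire1) were not detected.

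Of 22 further Atf4 targets, 16 were detected, and 5 were lower and none higher at the looser threshold, where 10.5% of all detected probes were lower and 4.32% higher, and the median was −0.29. Like the other lists, this one was chosen with earlier results of these data known, so no excess is drawn from its count. The groups did not overlap for any of the 5 lower genes, beside 7.09% of all detected probes lower without overlap. Slc6a9, a glycine transporter, fell at the adjusted threshold, from 10.36, 10.32, 10.56 and 10.59 on the mock arrays to 9.75, 9.77, 9.79 and 9.89 on the Bcl11b arrays (difference −0.66 ± 0.074, SE, n = 4 per group, limma adjusted p = 0.0325). Without Bcl11b replicate 1, 2 or 3 its limma adjusted p was 0.112 to 0.124, and under 3 of 10 other settings (no normalization, the replicate block and limma-trend) it was 0.124 to 0.138. The cystine importer Slc7a11 measured 8.37 to 8.73 with mock and 7.86 to 8.20 with Bcl11b (difference −0.44, limma adjusted p = 0.199). Jdp2, an AP-1 repressor, was lower by 0.67 on the log2 scale, the alanine aminotransferase Gpt2 by 0.41 and the angiogenic factor Vegfa by 0.32, with limma adjusted p-values of 0.199, 0.184 and 0.251. The other 11 detected targets passed neither threshold and included Slc3a2 (−0.35, interval −1.07 to 0.37), the partner of Slc7a11, and Slc7a3 (0.34, interval −0.06 to 0.75), a transporter of basic amino acids.

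Of 40 other ER genes, 28 were detected and 2 were lower at the looser threshold, the disulfide isomerase Txndc5 (−0.42, limma adjusted p = 0.261) and the degradation lectin Os9 (−0.60, limma adjusted p = 0.401, groups overlapping), with a median of −0.048. Among 12 other cytosolic synthetases 10 were detected and Farsa was lower (−0.76, limma adjusted p = 0.36), and among 17 mitochondrial synthetases 14 were detected and Vars2 was lower (−0.61, limma adjusted p = 0.363). These counts use the brightest probes. Dimmer probes of Vars (−0.57, limma adjusted p = 0.373) and Tars (−0.50, limma adjusted p = 0.474) were also lower at the looser threshold. The brightest probes of Vars (0.07) and Tars (−0.17) passed neither threshold, nor did the dimmest Vars probe (1.32, interval −0.50 to 3.14). Over all detected probes, 10.5% were lower and 4.32% higher at the looser threshold. The lists differ in size, so their raw counts are not ranked. These lists were described by their counts and medians, and were not tested as sets.

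**Figure D4:**
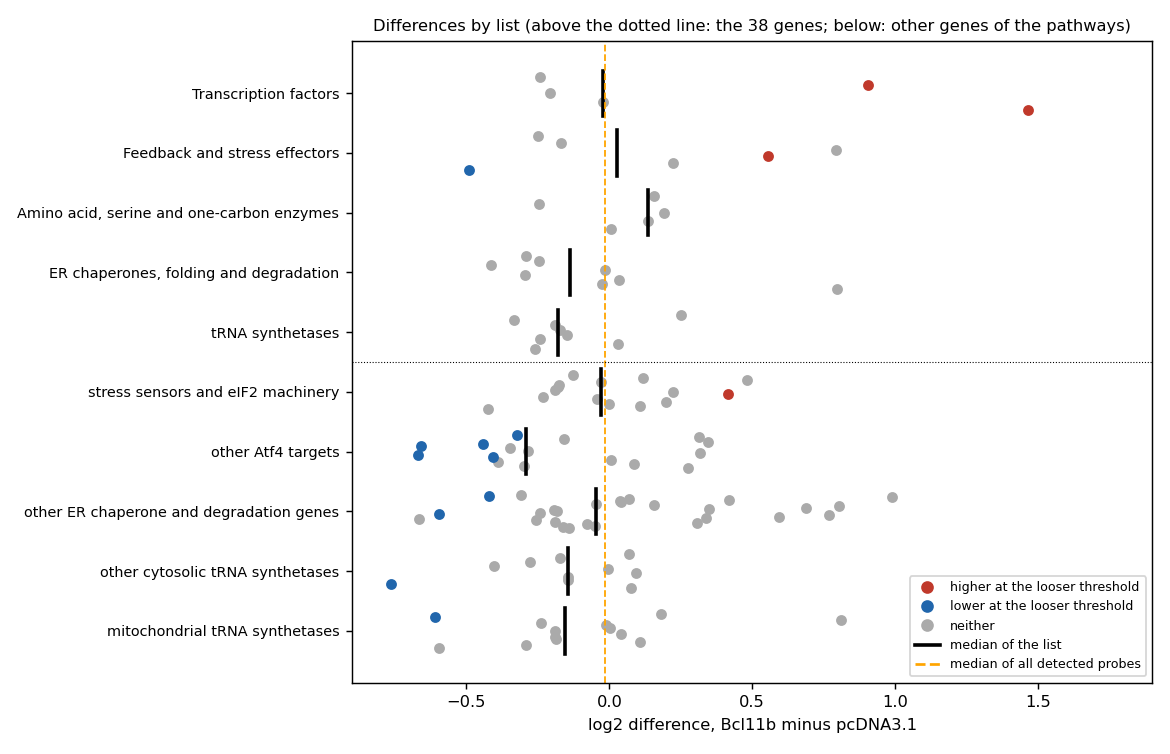
Log2 difference (x axis, Bcl11b minus pcDNA3.1) of each detected gene, by list, with a black bar at the median of each list and a dashed line at the median of all detected probes (−0.016). Spcs2 and Nars2, detected with mock only, are left out of the points but not of the medians. The 5 blue points of the other Atf4 targets lie between −0.67 and −0.32, and the median bar of that list at −0.29.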

How the data were processed

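The authors deposited 1 intensity per probe and array, the average bead signal after background subtraction in GenomeStudio, not normalized between arrays, and a detection p-value per probe against negative control beads. Here these intensities were normalized by quantiles, floored at 1, log2-transformed and compared between groups with limma 3.58.1 (R 4.3.3, lmFit and eBayes, no covariate, 25697 probes, Benjamini-Hochberg adjustment). On each array 30.6% to 31.6% of signals were at or below 0. The number of arrays limits the precision, and no array was a copy of another. Groups and replicate numbers came from the sample titles. The members, roles, further lists and motifs were chosen with earlier results of these data known. All detected members were named, and from the further lists the genes past a threshold; the eIF2 kinase genes, Eif2b2, Eif2b4, Eif2b5, Ern1, the mesenchymal markers, Slc3a2 and Slc7a3 were added after their values were seen. A gene was matched through its symbol or, where unambiguous in RefSeq (GRCm38.p6), an older symbol, and was represented by its brightest probe. The alternatives were: no normalization; scaling by array medians; neqc; an offset of 16; detection at 0.01 or at 0.05 required on 4 arrays; a replicate block; limma-trend with robust eBayes; arrayWeights; the mean over a gene's probes; and omission of each array. The main within-group component as a covariate, and omission of the 2 farthest arrays together, were chosen after seeing the data. The fit was tested on simulated data. Same-numbered arrays deviated together with correlations of 0.52, −0.54, 0.10 and 0.57, so the numbers were not taken to pair them.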

Additional observations from a re-analysis of the deposited data

Results flagged for a closer look

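In 4 of the 64 groups of 4 arrays examined (32 genes in each group), 1 array lay far from the others by Dixon's criterion, which chance meets in about 1 in 20 groups. Of these, 3 concerned Bcl11b replicate 4, the array farthest out over all probes. It was low for the mTORC1 inhibitor Ddit4, at a log2 signal of 10.12 beside 10.43 on each of the other 3 Bcl11b arrays. It was high for the serine synthesis enzyme Psat1, at 14.01 beside 13.39 to 13.46, and for the glycyl-tRNA synthetase Gars, at 14.14 beside 13.57 to 13.65. The remaining value was Shmt2 on pcDNA3.1 replicate 4, at 10.83 beside 10.67 to 10.68. Why these values stand apart was not tested.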

How the results depend on the processing

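Atf3 was higher and Chac1 lower, past the looser threshold, under all 10 alternative settings and with any array left out. Of 330 values of 33 genes under these settings, 273 kept both their sign and their side of the looser threshold and 25 changed sign, 9 of them without normalization, 6 with arrayWeights, 5 with median division and 5 with the mean of probes. Among the 32 genes, 19 were below 0, but 28 without normalization and 14 with median division. The count of genes higher at the adjusted threshold (1) was 0 without normalization and 0 with the replicate block, where the adjusted p of Atf3 was 0.211, and 2 with the component as a covariate, 2 without the 2 farthest arrays, and 1 to 2 with an array left out. The count lower at that threshold (1) was 0 without normalization, 0 with division by the array median, 0 with the offset, 0 with either detection filter, 0 with limma-trend, 0 with arrayWeights, 0 without the farthest arrays, and 0 to 1 with an array left out. The share of all detected probes past the adjusted threshold in these fits is not given here.

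At the looser threshold, the count higher (3) was 1 without normalization and 5 with neqc, the offset, either detection filter and the covariate, and 2 to 4 with an array left out. The count lower (1) was 15 without normalization, where the median of all detected probes was −0.68, 7 with arrayWeights, 7 without the farthest arrays, and 1 to 5 with an array left out. The share of all detected probes past the looser threshold in these fits is not given here. No change in these counts is therefore read as a result about the genes. Over the whole array, probes past the adjusted threshold numbered 252 in the main fit and 57 without normalization. They numbered 642 with arrayWeights and 525 without the farthest arrays. Among genes past the looser threshold before or after, the sign reversed for Ppp1r15a without normalization (−0.091) and for Eprs without the farthest arrays (−0.44). Genes past it in neither also changed sign, such as Ddit4 (0.22 to −0.47), Shmt2 (0.16 to −0.51) and Mthfd2 (0.14 to −0.52) without normalization. The cause was not tested.

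The counts by list below are given without the share of all detected probes past the looser threshold in the same fit. None is therefore read as a result about its list. Without normalization the median of all detected probes was −0.68. The genes past the looser threshold then numbered 1 for amino acid enzymes (main value 0), 4 for the ER (0), 6 for synthetases (0), 6 for sensors (1), 10 for further Atf4 targets (5), 12 for other ER genes (2), 7 for other cytosolic synthetases (1) and 8 for mitochondrial ones (1). In the same order arrayWeights gave 1, 2, 2, 2 and, past the Atf4 targets, 7, 3 and 2. Without the farthest arrays the ER gave 1, synthetases 3, sensors 3, other ER genes 11 and other cytosolic synthetases 2. The ER count was 1 with median division, neqc, the offset, either filter and the covariate, and other ER genes gave 4 with median division and 5 with the covariate. Other cytosolic synthetases gave 2 with neqc, the replicate block, the mean of probes and the covariate, and mitochondrial ones 2 with neqc, either filter and the covariate and 0 with the block. With the mean of probes 1 transcription factor passed (main value 2), since Ddit3 did not. With an array left out the counts were 1 to 3 for transcription factors, 0 to 1 for amino acid enzymes, 0 to 3 for the ER, 0 to 2 for synthetases, 1 to 2 for sensors, 4 to 7 for Atf4 targets, 1 to 6 for other ER genes, 0 to 2 for other cytosolic and 0 to 3 for mitochondrial synthetases. Their highest values came without Bcl11b replicate 4 for transcription factors, amino acid enzymes, synthetases, other ER genes and other cytosolic synthetases, and without pcDNA3.1 replicate 2 for the rest. Dim signals, near or below background, limit what can be said of the 5 undetected genes.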
